A study of Takifugu obscurus with 9 samples.

Results

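The genes described here make up the machinery that folds, glycosylates, exports and degrades proteins at the endoplasmic reticulum (ER). They were taken from the deposited table of 46444 assembled features of the obscure puffer (Takifugu obscurus), where each feature groups assembled transcripts that are counted as 1 gene. Of these, 300 features carried the KEGG pathway for protein processing in the ER and 229 of the 300 had a fish protein as best match. After 11 features described as heat shock proteins were left out, 218 remained, and the most abundant feature of each gene name was kept. That gave 162 members, 135 of them best matched in the pufferfish Takifugu rubripes. Measured levels served only to choose among features of 1 name, with all 9 libraries averaged. The 17 features without a name counted as 1 name, and the most abundant of them, a short feature with the KEGG entry of calreticulin, stands for them.

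Secretory and membrane proteins enter the ER through the Sec61 channel, receive sugar chains from oligosaccharyltransferase, and are folded by BiP, GRP94, the lectins calnexin and calreticulin, and the disulfide isomerases. Folded cargo leaves in COPII vesicles, while misfolded protein is tagged with ubiquitin, pulled out by the ATPase VCP and degraded, a route called ER-associated degradation (ERAD). When folding falls behind, the sensors IRE1, PERK and ATF6 start the unfolded protein response, and the kinase PKR shares with PERK the target eIF2alpha, through which double-stranded RNA can slow protein synthesis. The fish kidney is a blood-forming and renal organ, and cells that secrete much protein, such as antibody-secreting plasma cells, carry much of this machinery.

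Whole kidneys came from obscure puffer aged 3 months, sampled at 0 h or at 12 h and 48 h after they were given poly(I:C), which imitates the double-stranded RNA of viruses. Each time has 3 RNA-seq libraries, and those at 0 h are labelled as controls. Nothing in the labels tells whether the 3 libraries of a time came from different fish, whether control fish received an injection, or how poly(I:C) was given, and no control was sampled at 12 h or 48 h, so treatment and time since handling cannot be told apart. The p-values therefore reflect the spread among these 9 libraries alone, and that spread may be technical.

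Levels are TPM, each feature's share of a fixed library total after correction for feature length. Depth was estimated at 22700000 to 29500000 reads per library. At a length of 2500 nucleotides, 1 read then equals 0.0235 to 0.0306 TPM, and that length is close to the median member length of 2479. Control library 3 stood apart from its group: over features averaging at least 10 TPM, control libraries 1 and 2 had a correlation of 0.985 with each other, and control library 3 had 0.857 and 0.864 with them. Among the members, the median absolute log2 difference was 0.0781 between control libraries 1 and 2, 0.269 between 1 and 3, and 0.248 between 2 and 3. Control library 3 was below both fellow controls for 67 members and above both for 79. At 12 h, library 3 lay between libraries 1 and 2 for 104 members. Proximal tubule markers, 8 of 9 found, were present in every library except for slc34a1, but at unequal levels: they summed to 244, 178 and 234 TPM in the 12 h libraries, 300, 337 and 174 TPM in the 48 h libraries, and 539, 520 and 225 TPM in control libraries 1, 2 and 3. Of the 8, lrp2, amn, anpep and aqp1 lay wholly below the controls at 12 h, as with anpep at 7.14, 2.44 and 5.23 TPM, against 76.1, 68.6 and 20.7 TPM. The others overlapped, cubn and slc5a2 through control library 3, while slc34a1 was scarce throughout. It had 0.0 TPM in control libraries 1 and 2, in every 12 h library and in 48 h library 1, and is described as transport protein 2B-like. The most abundant at 12 h, slc22a6, did not fall, with 152, 109 and 148 TPM, against 143, 147 and 67.1 TPM in the controls. Its feature is described as solute carrier family 22 member 8-like. The part of these marker differences in the members' differences at 12 h was not tested.

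All members passed the filter of at least 1 TPM in 3 libraries. Their mean levels ran between 1.18 and 1159 TPM with a median of 29.8, against a median of 2.36 TPM over all features, and 130 averaged at least 10 TPM and 19 at least 100 TPM. Because level affects what a test can detect, shares are given for all 45473 features tested and also for the 11327 of them averaging at least 10 TPM. The members together held 0.760% to 1.06% of the TPM of a library. Their summed level was 9428, 9136 and 7562 TPM in control libraries 1, 2 and 3, 9676, 10499 and 10177 TPM at 12 h, and 8530, 9184 and 9489 TPM at 48 h. All 3 sums at 12 h lay above all 3 control sums, while those at 48 h overlapped the controls. In whole tissue, fewer cells of a type and less RNA per cell cannot be told apart.

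At 12 h, against 0 h, 53 of the 162 members (32.7%) stood above all controls in every 12 h library, against 8.25% of all features and 15.3% of those at 10 TPM or more. They included 13 of the 28 members of the VCP and ubiquitin group, 9 of 14 for vesicle exit, 6 of 13 for the translocon, 5 of 8 for BiP and its partners, and 4 of 5 for the oligosaccharyltransferase. In other groups they were fewer, with 4 of 19 for glycan trimming and lectins, 2 of 8 for the disulfide isomerases and 0 of 15 for death and kinase signalling. The transcription factor feature named Nfe2l2 was much less abundant in every 12 h library. Few of these differences passed the test: 2 members rose, the VCP cofactor NSFL1C and Txnl1, and 1 fell, Nfe2l2 (limma, adjusted p under 0.05). These 3 are 1.85% of the members, against 1.42% of all features called and 2.98% of those at 10 TPM or more, so the share called was near the background. By direction, 0.592% of all features and 1.39% of those at 10 TPM or more were called higher, and 0.831% and 1.59% lower. Leaving out 1 library gave 0 to 6 calls, with 0 when control library 1, control library 2, 12 h library 2 or 12 h library 3 was the one omitted. The 6 calls came without 12 h library 1, where 218 of 45040 features were called higher and 294 lower. Over all features, omitting control library 1 called 23 higher and 27 lower, and control library 2 called 28 and 27. Omitting 12 h library 2 called 43 and 52, and 12 h library 3 called 14 and 20. At an unadjusted p under 0.05, 34 members (21.0%) were higher, against 6.16% of all features and 11.8% of those at 10 TPM or more. By the same measure, at which 15.9% of all features passed either way, 8 members (4.94%) were lower, against 9.74% and 11.2%. The 12 h libraries lay wholly below the controls for 11 members (6.79%), against 12.7% in either set. Without control library 3, 67 members (41.4%) lay above, against 16.4% of all features and 29.2% of those at 10 TPM or more, and 19 (11.7%) lay below, against 21.4% and 21.1%. The median log2 fold change of the members was 0.17, against -0.07 over all features and 0.03 over those at 10 TPM or more. No test was made of the members as a set.

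At 48 h, against 0 h, no member passed limma's test, against 0.011% of all features called, 0.0088% higher and 0.0022% lower, and 0.0441% of those at 10 TPM or more. Omitting control library 3 gave 1 call, the feature named hopx, which was lower (log2 fold change -1.65, limma adjusted p = 0.0421). It is named after its values were seen, and is described as a homeodomain-only protein with a KEGG entry of SEC24. The controls had 47.4, 50.9 and 9.41 TPM and the 48 h libraries 10.5, 18.9 and 16.6 TPM. The omitted control thus lay below every 48 h library, and the call rests on its omission. With that omission, 47 of 44854 features were called higher and 31 lower. At an unadjusted p under 0.05, 35 members passed (21.6%), against 11.1% of all features and 18.1% of those at 10 TPM or more. Of those 35, 33 were higher and 2 lower, and the higher ones were 20.4% of the members, against 8.0% of all features and 14.9% of those at 10 TPM or more. The lower ones were 1.23%, against 3.08% and 3.24%. The 48 h libraries lay wholly above the controls for 53 members, as many as at 12 h, against 12.3% of all features and 20.6% of those at 10 TPM or more. They lay wholly below for 4 members (2.47%), against 3.95% and 2.94%. Without control library 3, 86 members (53.1%) lay above, against 28.6% of all features and 47.3% of those at 10 TPM or more, and 23 (14.2%) below, against 14% and 16.5%. The members' median log2 fold change was 0.20, near the 0.17 of the features at 10 TPM or more. Both comparisons use the same 3 controls.

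Between 48 h and 12 h, 2 members were called higher, Nfe2l2 and the ubiquitin ligase MARCH6, and 1 lower, the ubiquitin-conjugating enzyme UBE2D2. They are 1.85% of the members, against 1.68% of all features called and 3.86% of those at 10 TPM or more. Called higher were 1.07% and 2.37%, and called lower 0.611% and 1.49%. Omitting control library 3 gave 19 calls, omitting 12 h library 1 gave 10 and omitting 12 h library 3 gave 0. Over all features, the first omission called 1703 higher and 789 lower of 44854. The second called 820 and 487 of 45040, and the third 18 and 11 of 44765. At an unadjusted p under 0.05, 47 members passed, against 21.5% of all features and 32.5% of those at 10 TPM or more. Of these, 25 were higher (15.4%), against 15.6% of all features and 22.2% of those at 10 TPM or more, and 22 were lower (13.6%), against 5.9% of all features and 10.2% of those at 10 TPM or more. Groups did not overlap for 40 members (24.7%) that were higher at 48 h, against 20.5% of all features and 27.8% of those at 10 TPM or more. They did not overlap for 33 members (20.4%) that were lower at 48 h, against 7.61% and 12.5%. An F test over the 3 times called 2 members, Nfe2l2 (adjusted p = 0.0134) and Txnl1 (adjusted p = 0.0439), against 1.18% of all features and 2.66% of those at 10 TPM or more, while 58 members (35.8%) had an unadjusted p under 0.05, against 20.2% of all features and 32.0% of those at 10 TPM or more.

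**Figure D1:**
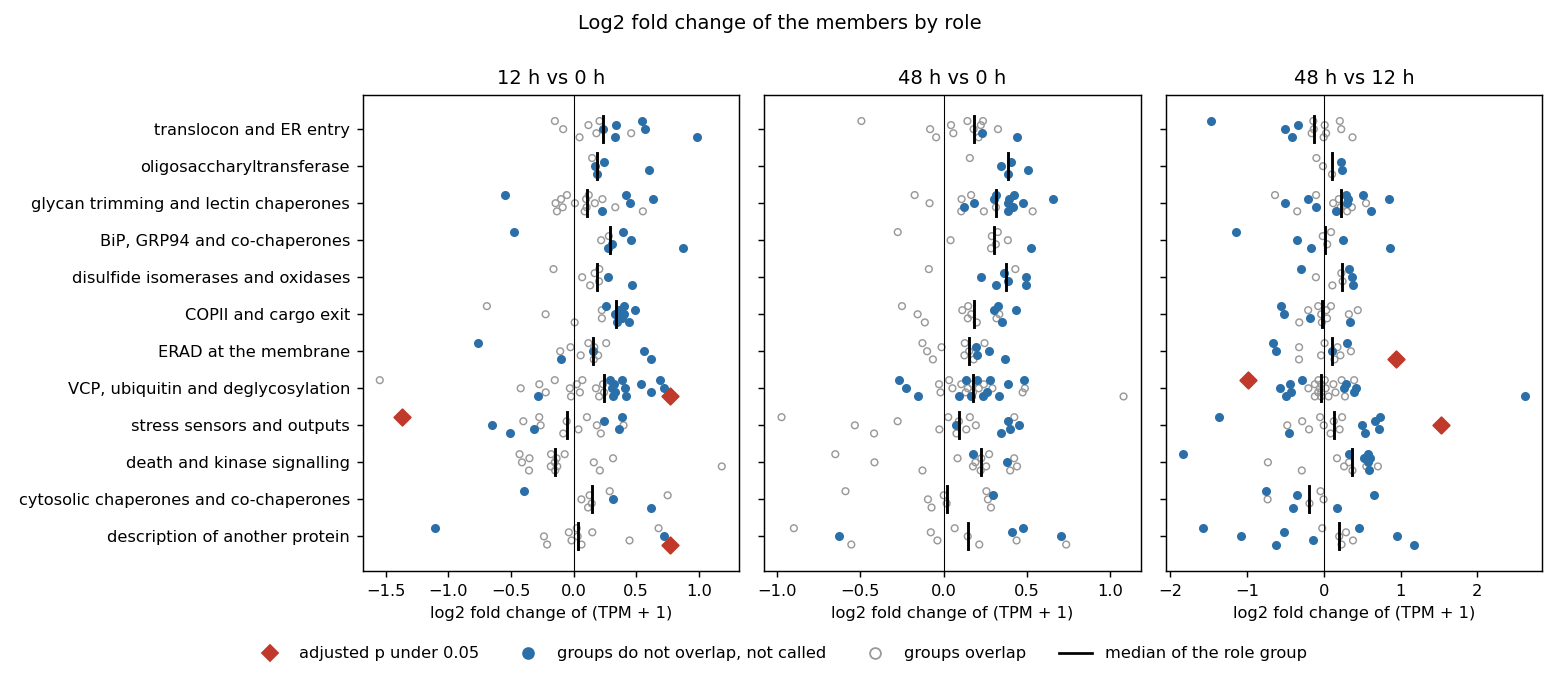
Log2 fold change of (TPM + 1) of each of the 162 members (horizontal axis), in 12 rows by role, with a panel for each treated time against 0 h and another for 48 h against 12 h. Red diamonds are the members with an adjusted p under 0.05, filled circles are members whose groups do not overlap, open circles are the rest, and black bars are role medians. Most medians at 12 h against 0 h lie right of 0, with the stress sensors at -0.06 and the death and kinase group at -0.15 as exceptions.

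**Figure D2:**
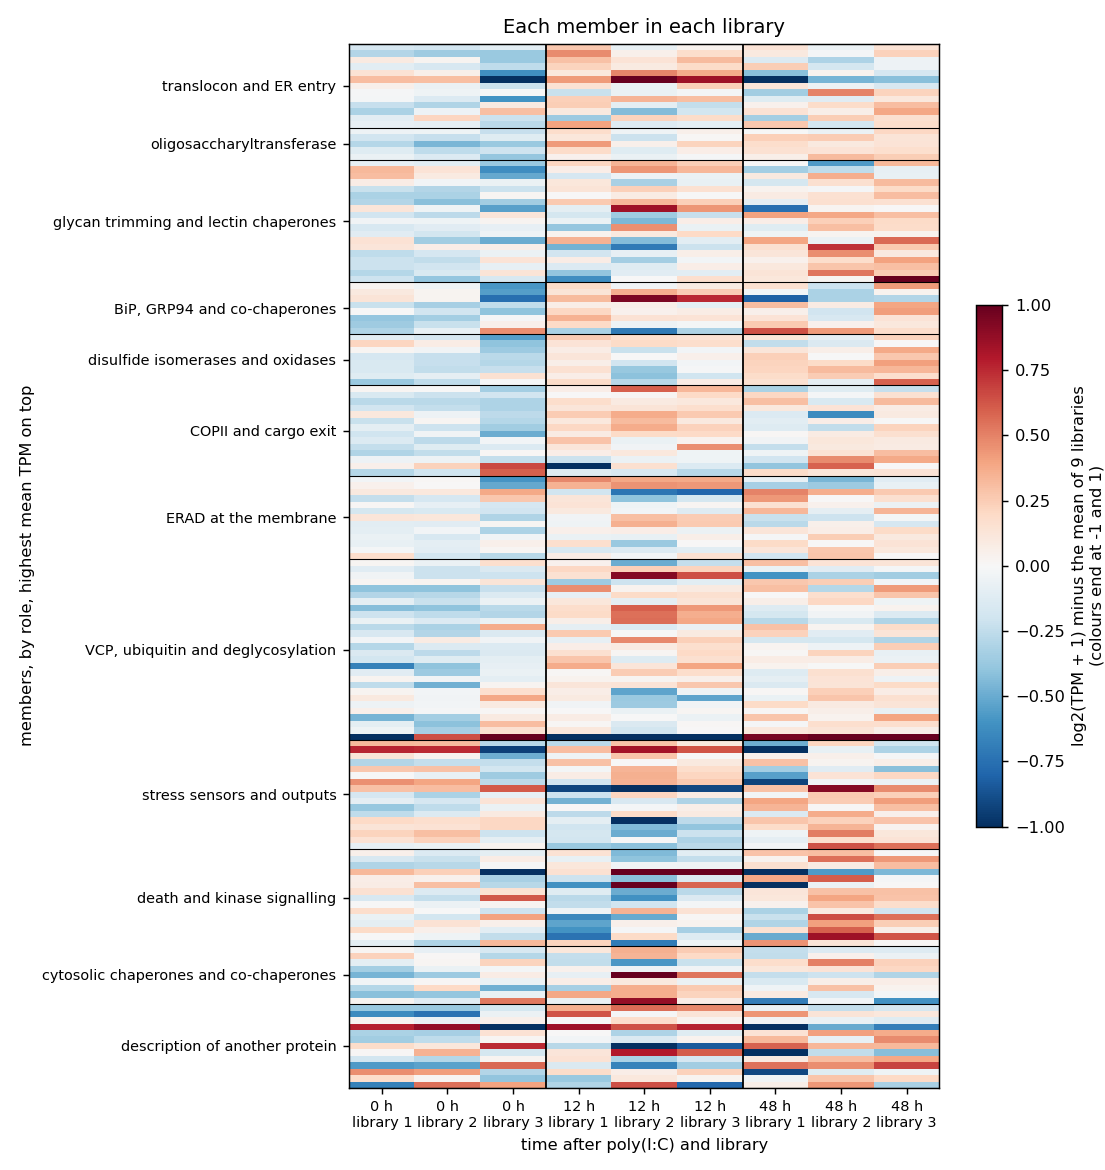
Each member (rows, by role and then by mean level) in each of the 9 libraries (columns), as log2(TPM + 1) minus its mean over the 9 libraries. Red is above that mean and blue below it, with colours ending at -1 and 1. Control library 3 differs from its fellow controls in both directions, below them for 67 members and above them for 79.

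Entry into the ER was represented by 13 members, parts of the Sec61 channel and its helpers. Their summed level was 1180 ± 32.6 TPM in the 12 h libraries, 1007 ± 44.0 TPM in the 48 h libraries and 913 ± 75.5 TPM in the controls (SD, n = 3 each). SEC61B, the beta subunit of the channel, had 136, 131 and 129 TPM in the controls, 232, 173 and 189 TPM at 12 h, and 178, 165 and 196 TPM at 48 h. Both treated groups lay above the controls, with log2 fold changes of 0.57 (SE 0.14, limma adjusted p = 0.0895) at 12 h and 0.44 (SE 0.14, adjusted p = 0.409) at 48 h. The channel's alpha subunit sec61al1, named here after its values were seen, had 56.8, 60.9 and 59.3 TPM at 12 h, against 47.2, 43.6 and 31.3 TPM in the controls. SSR2, a subunit of the translocon-associated protein complex and the most abundant of the 13, had 218, 215 and 229 TPM in the controls, 297, 234 and 252 TPM at 12 h, and 271, 236 and 272 TPM at 48 h. None of the 13 was called. In all, 6 of the 13 were higher in every 12 h library than in any control and none was lower in every one, also without control library 3. Of the features at 10 TPM or more, 15.3% were higher in that way, or 29.2% without control library 3.

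RRBP1, a ribosome-binding protein of the ER membrane, spread most among these genes. It had 85.9, 85.4 and 31.7 TPM in the controls, 93.0, 159 and 125 TPM at 12 h, and 32.0, 49.8 and 51.4 TPM at 48 h. All 12 h libraries were above all others, and the 48 h libraries overlapped the controls through control library 3. The log2 fold change was -1.48 (SE 0.38, limma adjusted p = 0.0759) for 48 h against 12 h. The model was fitted again 10 times, 9 times with a different library missing and 1 time with control libraries 1 and 2 replaced by their mean. Over these 10 fits the adjusted p of RRBP1 ran between 0.0181 and 0.207, and was under 0.05 in 1 of them.

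The oligosaccharyltransferase, which transfers a preassembled sugar chain to entering proteins, had 5 members, and all 5 had positive log2 fold changes against 0 h at both times. Of the features at 10 TPM or more, 52.9% were positive at 12 h and 70.3% at 48 h. RPN2, one of its subunits, had 53.4, 47.2 and 50.01 TPM in the controls, 88.1, 67.7 and 76.0 TPM at 12 h, and 73.8, 69.7 and 71.7 TPM at 48 h. Every treated library exceeded every control, with log2 fold changes of 0.60 (SE 0.14, limma adjusted p = 0.0697) at 12 h and 0.51 (SE 0.14, adjusted p = 0.409) at 48 h. The subunit ddost averaged 120 ± 5.67 TPM at 48 h and 91.4 ± 3.58 TPM at 0 h (SD, n = 3 each) without overlap, and its 12 h libraries overlapped the controls. DAD1, the most abundant of the 5 and known as a defender against cell death, averaged 273 ± 21.0 TPM at 12 h, 271 ± 27.5 TPM at 48 h and 242 ± 17.5 TPM at 0 h. At 48 h, 4 of the 5 lay wholly above the controls, with or without control library 3, and the median log2 fold change of the 5 was 0.39. Of the features at 10 TPM or more, 20.6% lay wholly above the controls at 48 h, or 47.3% without control library 3.

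**Figure D3:**
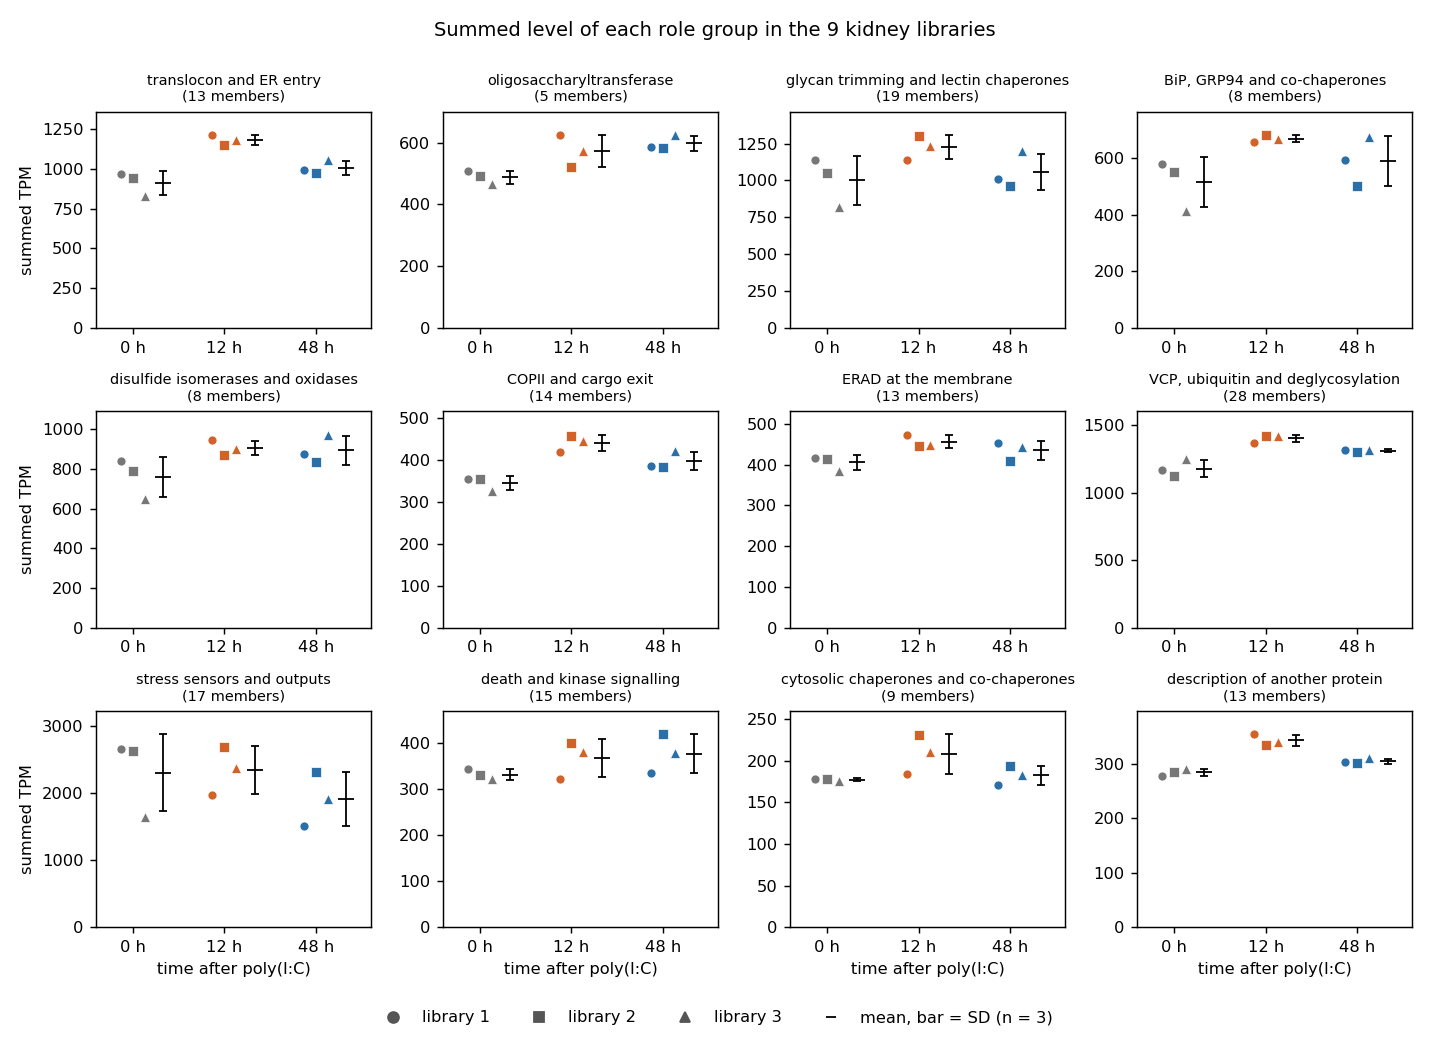
Summed TPM (vertical axes, from 0) of the members of each of the 12 role groups in the 9 libraries, by time after poly(I:C). Each point is 1 library, and the horizontal mark with its bar is the mean and SD of 3 libraries. At 12 h the sums of every group lie wholly above the controls, except the stress sensors and the death and kinase group. The stress sensor sums overlap between all times.

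Glycan trimming and the lectin chaperones had 19 members. Uggt1 re-attaches glucose to unfolded glycoproteins so that the lectins hold them for another attempt at folding. It had 26.3, 24.1 and 25.4 TPM in the controls, 39.1, 41.2 and 38.5 TPM at 12 h, and 30.4, 36.4 and 36.1 TPM at 48 h. The 3 times did not overlap with one another, 12 h being highest, and the log2 fold change at 12 h was 0.63 (SE 0.13, limma adjusted p = 0.0534). Glucosidase 2, which trims the glucose that Uggt1 adds back, has a beta subunit, Prkcsh, that was 40.9, 44.3 and 41.5 TPM at 12 h, against 31.8, 30.2 and 32.1 TPM in the controls; it was named after its values were seen.

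The lectins themselves were abundant and did not follow 1 pattern. Calreticulin (CALR, described in the table as calreticulin-3) had 407, 355 and 210 TPM in the controls, 340, 440 and 407 TPM at 12 h, and 255, 271 and 306 TPM at 48 h. Its 12 h libraries overlapped the controls, and its log2 fold change of 0.33 at 12 h (limma adjusted p = 0.537) was 0.05 without control library 3. The unnamed feature with the calreticulin entry had 437, 477 and 446 TPM at 12 h, against 356, 350 and 291 TPM in the controls, without overlap (log2 fold change 0.45, adjusted p = 0.326). At 653 nucleotides it is shorter than the CALR feature of 1590, and reads of closely related calreticulin genes could be split between them. Calnexin (CANX) averaged 95.2 ± 4.48 TPM at 12 h and 102 ± 27.9 TPM at 0 h (SD, n = 3 each). Its feature is described as calnexin-like and carries the same assembly cluster number as both calreticulin features. Reads could therefore be divided with it too.

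MAN1B1, a mannosidase whose trimming of sugar chains helps to mark proteins for degradation, had another order of times. It had 15.6, 14.8 and 19.6 TPM in the controls, 15.8, 13.8 and 15.1 TPM at 12 h, and 24.1, 23.9 and 22.4 TPM at 48 h. The 48 h libraries were above all others (log2 fold change 0.62 against 12 h, SE 0.15, limma adjusted p = 0.0685). Over the 19 members, 11 lay wholly above the controls at 48 h and 4 at 12 h, and without control library 3 the counts were 12 and 6. The 4 at 12 h are near the share of features at 10 TPM or more, which was 15.3%, and 29.2% without control library 3; at 48 h those shares were 20.6% and 47.3%. The group median was 0.31 at 48 h and 0.10 at 12 h, both against 0 h; whether the times differ as a group was not tested.

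BiP, GRP94 and their co-chaperones had 8 members, none of them called. BiP (hspa5), the main Hsp70 of the ER lumen, had 180, 171 and 114 TPM in the controls, 184, 216 and 200 TPM at 12 h, and 165, 135 and 172 TPM at 48 h. The 12 h libraries lay just above the controls, by 0.39 log2 units (SE 0.19, limma adjusted p = 0.353), or 0.19 without control library 3. GRP94 (HSP90B1), the Hsp90 of the ER lumen, averaged 221 ± 17.6 TPM at 12 h, 231 ± 50.6 TPM at 48 h and 184 ± 39.8 TPM at 0 h, with overlap. DNAJC3, a BiP co-chaperone also known as an inhibitor of PKR and PERK, had 67.9, 63.2 and 36.4 TPM in the controls, 77.5, 120 and 105 TPM at 12 h, and 34.8, 49.6 and 50.4 TPM at 48 h. All 12 h libraries exceeded all others. The log2 fold change was 0.87 (SE 0.27, adjusted p = 0.151) for 12 h against 0 h and -1.14 (SE 0.27, adjusted p = 0.0607) for 48 h against 12 h, with an adjusted p of 0.0236 to 0.183 over the 10 fits, under 0.05 in 2. DNAJB11, another BiP partner, had its highest values later, with 51.3, 43.7 and 54.5 TPM at 48 h, against 35.2, 32.7 and 34.7 TPM in the controls (log2 fold change 0.53, SE 0.14, adjusted p = 0.409).

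The disulfide isomerases and their oxidases had 8 members. PDIA3, which acts on glycoproteins held by the lectins, had 257, 245 and 188 TPM in the controls, 330, 310 and 305 TPM at 12 h, and 301, 260 and 322 TPM at 48 h. Both treated groups lay above the controls, by 0.46 (SE 0.15, limma adjusted p = 0.174) and 0.36 (SE 0.15, adjusted p = 0.444) log2 units. P4HB, the classical isomerase PDI, averaged 285 ± 5.81 TPM at 12 h, 233 ± 20.5 TPM at 48 h and 251 ± 53.1 TPM in the controls, with overlap at both treated times. PDIA4 averaged 81.3 ± 3.56 TPM at 12 h, 88.1 ± 9.09 TPM at 48 h and 66.8 ± 2.48 TPM at 0 h, without overlap between either treated group and the controls. Ero1b, the oxidase that recharges the isomerases, had 62.8, 61.7 and 72.0 TPM at 48 h, against 48.4, 45.9 and 43.9 TPM in the controls (log2 fold change 0.50, SE 0.13, adjusted p = 0.409). Txndc5, a thioredoxin-domain isomerase, had 61.8, 66.4 and 67.2 TPM at 48 h, against 47.9, 44.7 and 45.3 TPM in the controls (log2 fold change 0.49, SE 0.16, adjusted p = 0.409). Of the 8 members, 6 lay wholly above the controls at 48 h and 2 at 12 h, or 7 and 2 without control library 3. Of the features at 10 TPM or more, 20.6% did so at 48 h and 15.3% at 12 h, or 47.3% and 29.2% without control library 3.

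**Figure D4:**
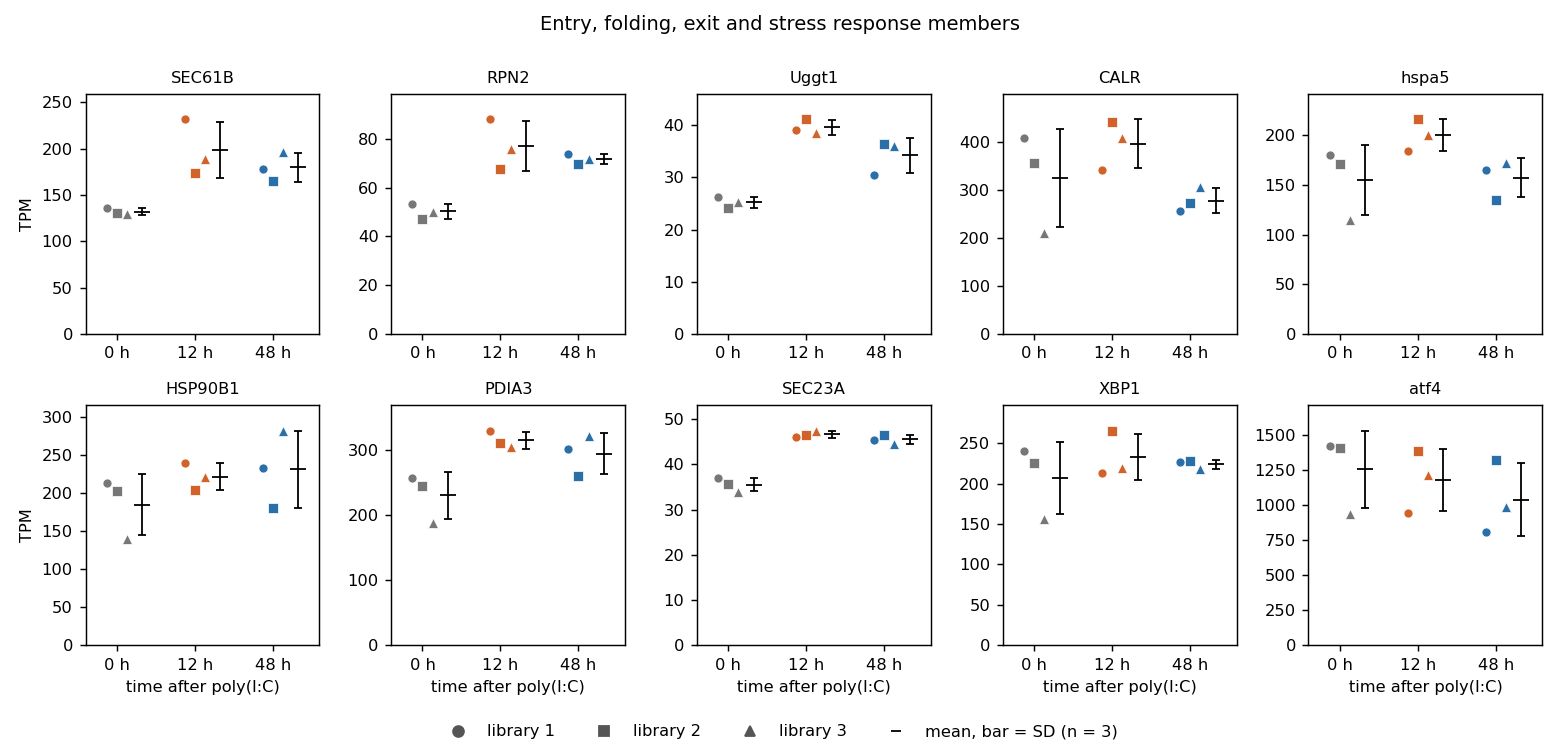
TPM (vertical axes, from 0) of 10 members for entry, folding, exit and the stress response in the 9 libraries, by time after poly(I:C). Points are libraries and the mark with its bar is the mean and SD of 3. SEC61B, RPN2, Uggt1, PDIA3 and SEC23A lie above the controls at both later times, while XBP1, CALR and atf4 overlap between 12 h and 0 h.

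Of the 14 members for vesicle exit, mostly COPII coat proteins, 12 had positive log2 fold changes at 12 h, within a range of -0.69 to 0.49, while at 48 h against 12 h 6 were positive. The positive shares among features at 10 TPM or more were 52.9% and 65.2% in these 2 comparisons. In sum the 14 members held 440 ± 19.5 TPM in the 12 h libraries, 396 ± 21.5 TPM in the 48 h libraries and 344 ± 16.7 TPM in the controls (SD, n = 3 each). SEC23A, a subunit of the inner coat whose own description in the table is the paralogue Sec23B, had 36.9, 35.6 and 34.0 TPM in the controls, 46.1, 46.4 and 47.5 TPM at 12 h, and 45.5, 46.5 and 44.6 TPM at 48 h. Each treated group was tight and above the controls, by 0.39 (SE 0.12, limma adjusted p = 0.155) and 0.35 (SE 0.12, adjusted p = 0.413) log2 units. SEC13, of the outer coat, averaged 54.2 ± 4.24 TPM at 12 h, 55.8 ± 4.59 TPM at 48 h and 45.1 ± 0.904 TPM at 0 h. Sar1b, the GTPase that starts coat assembly, averaged 81.5 ± 15.2 TPM at 12 h, 54.7 ± 3.69 TPM at 48 h and 59.5 ± 8.14 TPM at 0 h, so that its 48 h libraries overlapped the controls. At 12 h, 9 of the 14 lay wholly above the controls, 11 without control library 3, and none below, against 15.3% and 29.2% above among the features at 10 TPM or more. The role median was 0.34. The lowest value, -0.69, belongs to a separate, scarce feature named SAR1B, given after its values were seen, with 0.24, 2.1 and 1.51 TPM at 12 h, against 1.86, 2.25 and 3.38 TPM in the controls, with overlap.

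ERAD at the membrane had 13 members. At 12 h against 0 h, 9 had positive log2 fold changes, against 52.9% of the features at 10 TPM or more. At 12 h, 3 of the 13 lay wholly above the controls and 2 wholly below, or 4 and 2 without control library 3. Of the features at 10 TPM or more, 15.3% lay above and 12.7% below, or 29.2% and 21.1% without control library 3. The ligase syvn1 (HRD1), the core of the main ERAD complex, had 56.0, 54.3 and 37.8 TPM in the controls, 69.2, 74.6 and 73.5 TPM at 12 h, and 43.0, 42.1 and 51.5 TPM at 48 h. VIMP (selenoprotein S), which helps recruit VCP to the membrane, had 80.5, 82.8 and 54.1 TPM in the controls, 115, 107 and 107 TPM at 12 h, and 77.98, 59.5 and 75.8 TPM at 48 h. In both genes all 12 h libraries were above all the others, with log2 fold changes of 0.56 (SE 0.17, limma adjusted p = 0.152) and 0.61 (SE 0.19, adjusted p = 0.149) at 12 h against 0 h. Herpud1, a scaffold of the same complex, averaged 35.4 ± 4.43 TPM at 12 h and 30.9 ± 5.07 TPM at 0 h (SD, n = 3 each), with overlap.

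MARCH6, a ligase of a second ERAD branch known to act on membrane proteins and sterol synthesis enzymes, went the other way. It had 56.5, 56.7 and 68.6 TPM in the controls, 46.0, 31.4 and 29.98 TPM at 12 h, and 74.8, 68.0 and 63.4 TPM at 48 h. All 12 h libraries were below all others. MARCH6 rose between 12 h and 48 h, with a log2 fold change of 0.94 (SE 0.18, limma adjusted p = 0.0383), and had -0.76 (SE 0.18, adjusted p = 0.0793) for 12 h against 0 h. Over the 10 repeat fits, the call for 48 h against 12 h held in 2, and the adjusted p ran between 0.0175 and 0.154. The MARCH6 feature is the most abundant of 2 with that name. With features summed by name, only 1 member was called higher at 48 h than at 12 h, against 2 as reported. Nfe2l2 has 1 feature, which summing leaves unchanged, so the call lost was that of MARCH6.

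The VCP, ubiquitin and deglycosylation group had 28 members, the cytosolic end of ERAD, and summed to 1403 ± 29.3 TPM at 12 h, 1313 ± 10.1 TPM at 48 h and 1180 ± 64.3 TPM at 0 h (SD, n = 3 each). NSFL1C (p47), a cofactor that directs VCP in membrane fusion and ubiquitin handling, rose at 12 h. It had 46.7, 47.4 and 52.0 TPM in the controls, 71.1, 95.8 and 85.2 TPM at 12 h, and 57.4, 62.7 and 64.4 TPM at 48 h. The 3 times did not overlap with one another. The log2 fold change was 0.77 (SE 0.15, limma adjusted p = 0.0396) at 12 h and 0.33 (SE 0.15, adjusted p = 0.450) at 48 h, both against 0 h. The 12 h call held in 2 of the 10 fits, with an adjusted p of 0.0368 to 0.177.

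VCP itself had much the same profile as NSFL1C, and it and its recruiters are given here after their values were seen. VCP had 51.1, 49.5 and 48.2 TPM in the controls, 67.8, 87.2 and 76.5 TPM at 12 h, and 52.2, 57.6 and 53.7 TPM at 48 h. Its 12 h libraries were above all others, with a log2 fold change of 0.62 (SE 0.14, limma adjusted p = 0.0618) against 0 h. UFD1L and NPLOC4 form the adaptor that brings ubiquitinated ERAD substrates to VCP. UFD1L had 54.8, 77.8 and 69.0 TPM at 12 h, against 50.3, 47.9 and 50.2 TPM in the controls (adjusted p = 0.213), and NPLOC4 had 16.5, 16.6 and 18.3 TPM, against 12.5, 10.5 and 15.3 TPM (adjusted p = 0.292). Neither pair of groups overlapped. NSFL1C has a UBX domain entry, and the other members with such an entry, also named after their values were seen, did not rise. Ubxn2a, which shares the KEGG entry of NSFL1C, had 14.2, 10.03 and 8.89 TPM at 12 h, against 14.3, 12.9 and 17.7 TPM in the controls. UBXN6 had 9.61, 7.46 and 9.59 TPM, against 9.5, 9.68 and 10.6 TPM. Both Ubxn2a and UBXN6 overlapped the controls. In the whole group, 13 of 28 members lay wholly above the controls at 12 h and 1 wholly below, or 16 and 1 without control library 3. Of the features at 10 TPM or more, 15.3% lay above and 12.7% below, or 29.2% and 21.1% without control library 3.

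Among the ubiquitin-conjugating enzymes, UBE2D2 had 99.6, 87.9 and 88.2 TPM in the controls, 113, 193 and 160 TPM at 12 h, and 67.2, 81.6 and 80.1 TPM at 48 h. The 3 times did not overlap, with 12 h highest and 48 h lowest. UBE2D2 fell between 12 h and 48 h by 0.99 log2 units (SE 0.19, limma adjusted p = 0.0409), and the call held in 2 of the 10 fits, with an adjusted p of 0.0169 to 0.152. This feature is the most abundant of 3 with that name, and the call was lost with features summed by name. The feature named UBE2D3, whose own description is UBE2D2, was even within groups, with 166, 170 and 168 TPM at 12 h, against 132, 124 and 130 TPM in the controls (log2 fold change 0.38, SE 0.11, adjusted p = 0.141). Since the UBE2D2 and UBE2D3 features belong to 1 closely related family, reads could be divided between them. SKP1, an adaptor of cullin ligases and the most abundant of the 28, averaged 182 ± 34.2 TPM at 12 h, 241 ± 17.2 TPM at 48 h and 218 ± 17.6 TPM at 0 h.

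**Figure D5:**
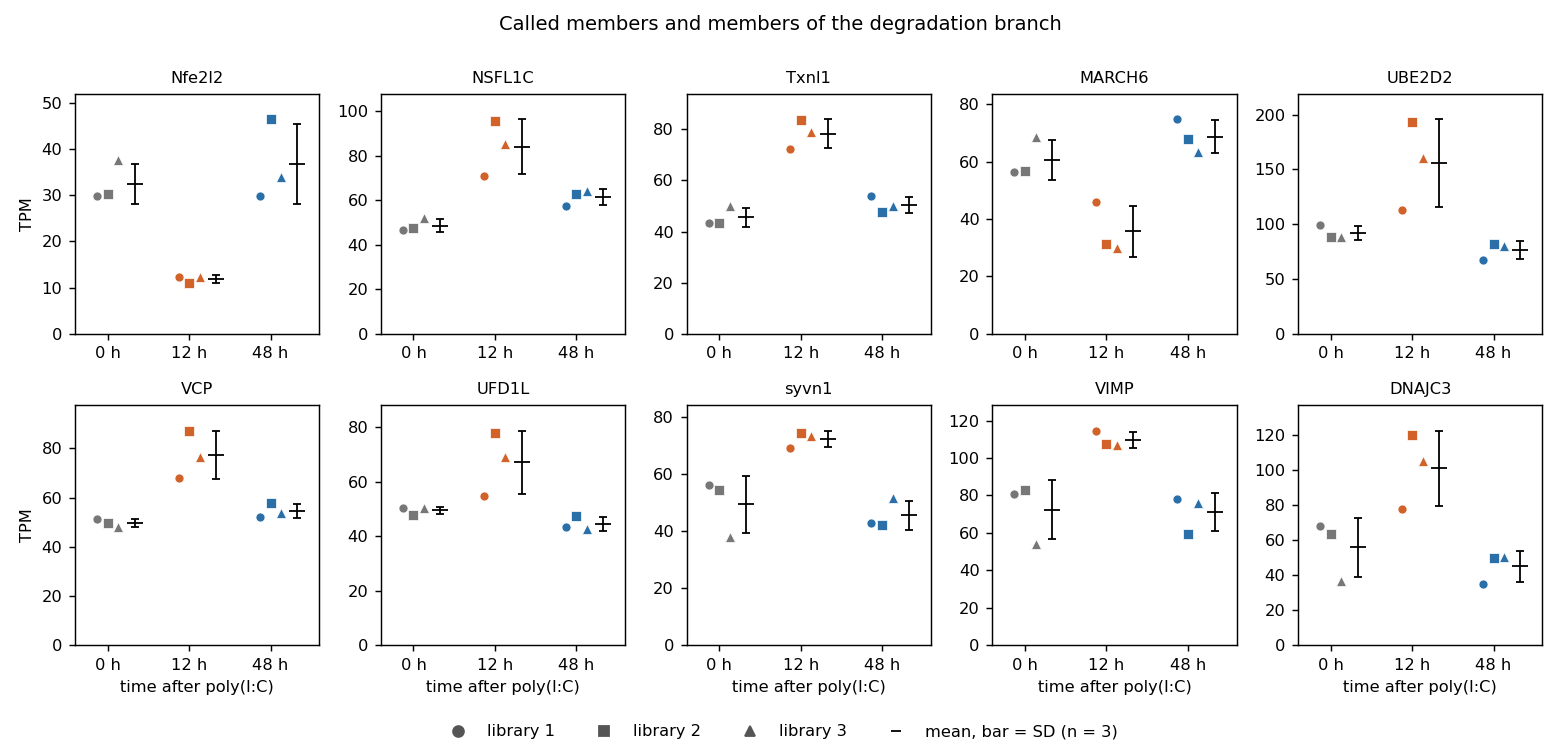
TPM (vertical axes, from 0) of 10 members in the 9 libraries, by time after poly(I:C): the called members Nfe2l2, NSFL1C, Txnl1, MARCH6 and UBE2D2, and VCP, UFD1L, syvn1, VIMP and DNAJC3. Points are libraries and the mark with its bar is the mean and SD of 3. Nfe2l2 and MARCH6 are lowest at 12 h in every library, and the other 8 are highest there.

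The 17 stress sensors and their outputs showed no common direction. The transcription factor XBP1, which IRE1 activates by splicing its RNA, had 240, 225 and 156 TPM in the controls, 213, 266 and 220 TPM at 12 h, and 227, 228 and 218 TPM at 48 h. Values at both treated times overlapped the controls (log2 fold changes of 0.19 and 0.14, limma adjusted p = 0.673 and 0.782), and spliced and unspliced forms are not separated in the table. ATF4 (atf4), a transcription factor made when eIF2alpha is phosphorylated, was the most abundant member, with 1422, 1411 and 937 TPM in the controls, 941, 1385 and 1213 TPM at 12 h, and 809, 1321 and 989 TPM at 48 h. Its values also overlapped at all times, and within each group 1 library lay well below the highest. ATF6 (Atf6) averaged 25.3 ± 3.79 TPM at 12 h, 27.7 ± 3.04 TPM at 48 h and 21.5 ± 1.82 TPM in the controls. IRE1 (ERN1) averaged 41.2 ± 4.11 TPM at 12 h, 34.4 ± 9.21 TPM at 48 h and 31.9 ± 4.09 TPM in the controls. A second feature with the IRE1 entry, Ern1, named after its values were seen, went the other way at a lower level, with 3.11, 3.01 and 3.41 TPM at 12 h, against 4.02, 4.09 and 4.45 TPM in the controls, without overlap (limma adjusted p = 0.564). PERK (Eif2ak3) was low, at 4.95 ± 0.693 TPM at 12 h, 7.45 ± 1.73 TPM at 48 h and 6.92 ± 1.42 TPM at 0 h (SD, n = 3 each). None of these features was called in any comparison. CHOP (ddit3) and GADD34 (ppp1r15a) are not among the members.

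MBTPS1, the site-1 protease that releases ATF6 from the membrane, had 20.4, 19.2 and 24.1 TPM in the controls, 15.4, 19.4 and 17.4 TPM at 12 h, and 28.9, 26.1 and 29.4 TPM at 48 h. The 48 h libraries were above all others, by 0.67 log2 units (SE 0.15, limma adjusted p = 0.0572) against 12 h. Over the 17 members, 3 lay wholly above the controls at 12 h and 4 wholly below, and without control library 3 these counts were 3 and 8. Of the features at 10 TPM or more, 15.3% lay above and 12.7% below, or 29.2% and 21.1% without control library 3. At 48 h, 5 of the 17 lay wholly above the controls and none below, against 20.6% above and 2.94% below. Without control library 3, 6 lay above and 4 below, against 47.3% and 16.5%.

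Double-stranded RNA is the ligand of PKR, and the table holds a pair of features described as such kinases. The feature named DDB_G0277539, after a slime mould protein, is described as a kinase activated by double-stranded RNA, and had 615, 610 and 190 TPM in the controls, 450, 647 and 561 TPM at 12 h, and 92.1, 345 and 294 TPM at 48 h. Its 12 h libraries overlapped the controls, and its 48 h libraries lay below the 12 h ones. The log2 fold change for 12 h against 0 h was 0.40 (SE 0.54, limma adjusted p = 0.782) and -0.16 without control library 3, so its sign rests on that library. For 48 h against 12 h it was -1.37 (SE 0.54, adjusted p = 0.188). Eif2ak2 averaged 38.3 ± 7.40 TPM at 12 h, 28.0 ± 9.0 TPM at 48 h and 40.3 ± 10.4 TPM at 0 h (SD, n = 3 each), with overlap. Their common substrate is eIF2alpha (EIF2S1, named after its values were seen). It had 127, 104 and 111 TPM at 12 h, against 84.6, 87.7 and 88.0 TPM in the controls. Its log2 fold change was 0.39 (SE 0.14, limma adjusted p = 0.202). Other eIF2alpha kinases, EIF2AK1 and EIF2AK4, also named after their values were seen, lay wholly below the controls at 12 h. EIF2AK1 had 9.82, 8.15 and 8.45 TPM, against 12.62, 12.78 and 13.33 TPM. EIF2AK4 had 12.69, 6.3 and 11.23 TPM, against 15.89, 15.48 and 15.96 TPM. Neither was called (F test adjusted p = 0.144 and 0.169).

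The clearest difference of the 162 members was in Nfe2l2. The feature carries the name and KEGG entry of NRF2, the regulator of the oxidative stress response, yet its own description is the NF-E2 45 kDa subunit, a related transcription factor of blood cells, best known in red cell and platelet precursors of mammals. It had 29.8, 30.2 and 37.5 TPM in the controls, 12.3, 10.97 and 12.4 TPM at 12 h, and 29.9, 46.4 and 34.0 TPM at 48 h. The 12 h libraries were close together and below all others. Nfe2l2 fell at 12 h, with a log2 fold change of -1.37 (SE 0.18, limma adjusted p = 0.0146), and rose between 12 h and 48 h, with 1.53 (SE 0.18, adjusted p = 0.0102). The first call held in 5 of the 10 fits, with an adjusted p of 0.0154 to 0.0807, and the second in 9, with 0.00643 to 0.0654. A separate member named NFE2L2 and described as NRF2 itself, given here after its values were seen, had 49.4, 63.6 and 56.8 TPM at 12 h, against 60.5, 61.6 and 44.1 TPM in the controls, with overlap. Erythroid markers, of which 3 of 8 were found (alas2, slc4a1 and tal1), summed to 47.3, 62.7 and 54.6 TPM in the 12 h libraries, 106, 52.7 and 58.7 TPM in the 48 h libraries, and 111, 122 and 262 TPM in the controls. All 3 lay below the controls at 12 h. At 48 h alas2 and slc4a1 overlapped their 12 h values, while tal1 did not. It had 20.8, 21.2 and 33.15 TPM in the controls, 6.68, 6.26 and 11.4 TPM at 12 h, and 17.8, 17.1 and 16.3 TPM at 48 h. The part of these markers in the Nfe2l2 result was not tested.

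The death and kinase signalling group had 15 members and none was called. No member of it lay wholly above or below the controls at 12 h, or 1 above and 2 below without control library 3. PITPNB, a name whose feature is described as an apoptosis regulator like BAX, had 43.6, 41.2 and 15.7 TPM in the controls, 38.6, 113 and 80.8 TPM at 12 h, and 11.9, 23.2 and 25.2 TPM at 48 h. Its 12 h libraries spread widely, all of them above the 48 h ones, with a log2 fold change of -1.83 (SE 0.48, limma adjusted p = 0.0786) for 48 h against 12 h, and an adjusted p of 0.0384 to 0.214 over the 10 fits, under 0.05 in 2. The members BAX and Bax share the KEGG entry of PITPNB, and both are named after their values were seen. BAX had 17.3, 13.1 and 15.5 TPM at 12 h and 20.6, 23.3 and 23.3 TPM at 48 h, higher without overlap. Bax had 47.1, 42.4 and 42.3 TPM at 12 h and 48.7, 46.0 and 54.2 TPM at 48 h, with overlap. The protease CAPN1 (calpain 1) averaged 69.6 ± 12.6 TPM at 48 h and 46.0 ± 5.38 TPM at 12 h (SD, n = 3 each), without overlap, and a log2 fold change of 0.58 (SE 0.17, adjusted p = 0.109). Capn2 averaged 69.4 ± 8.16 TPM at 48 h and 55.6 ± 11.2 TPM at 12 h, with overlap. In this comparison 6 of the 15 members were higher without overlap and 1 was lower, against 27.8% and 12.5% of the features at 10 TPM or more. The group median was 0.37, against 0.21 over all features.

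Cytosolic chaperones and co-chaperones had 9 members, none called. DNAJA2, an Hsp40 partner of cytosolic Hsp70, averaged 75.9 ± 6.51 TPM at 12 h, 56.8 ± 2.52 TPM at 48 h and 60.8 ± 3.71 TPM at 0 h, with all 12 h libraries above the others. Hspbp1, a nucleotide exchange factor of Hsp70, had 12.7, 12.5 and 11.2 TPM at 12 h, against 6.87, 7.01 and 8.96 TPM in the controls, without overlap (log2 fold change 0.62, SE 0.17, limma adjusted p = 0.113). The vesicle co-chaperone dnajc5 had 20.0, 15.6 and 20.3 TPM at 12 h, against 22.2, 24.2 and 28.1 TPM in the controls. Dnajc5b averaged 35.1 ± 7.09 TPM at 12 h and 32.2 ± 5.89 TPM at 0 h (SD, n = 3 each), with overlap.

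The last role group holds 13 members whose protein description named something other than the KEGG entry, so their place in the pathway rests on that entry. Members kept in other groups can differ from their entry too, as Nfe2l2 does. Txnl1, described as thioredoxin-like protein 1, a redox protein known to bind the proteasome, had 43.5, 43.3 and 49.9 TPM in the controls, 72.3, 83.4 and 79.1 TPM at 12 h, and 53.7, 47.6 and 49.9 TPM at 48 h. All 12 h libraries were above all others. Txnl1 rose at 12 h, with a log2 fold change of 0.77 (SE 0.13, limma adjusted p = 0.0311), and had -0.62 (SE 0.13, adjusted p = 0.0502) for 48 h against 12 h. The 12 h call held in 3 of the 10 fits, with an adjusted p of 0.0241 to 0.15. PDCD4, described as a protein of programmed cell death and known as an inhibitor of translation, had 24.3, 23.1 and 36.2 TPM in the controls, 17.4, 8.87 and 11.4 TPM at 12 h, and 32.4, 27.0 and 26.8 TPM at 48 h. Its 12 h libraries were below all others (log2 fold change -1.11 against 0 h, SE 0.25, adjusted p = 0.0668). JMJD8 averaged 49.3 ± 12.4 TPM at 12 h, 47.9 ± 6.59 TPM at 48 h and 29.5 ± 8.11 TPM at 0 h, without overlap between either treated group and the controls.

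Markers of blood and other cells also differed between libraries. All marker lists were searched by exact gene name, ignoring letter case, so a marker not found may be present under another name. Those of B and plasma cells, of which 3 of 9 were found (cd79a, pax5 and prdm1), summed to 50.6, 65.3 and 56.7 TPM in the 12 h libraries, 27.3, 25.8 and 22.96 TPM in the 48 h libraries, and 49.4, 47.3 and 29.7 TPM in the controls. All 12 h sums lay above all others, but no single marker did so: prdm1 had 7.59, 32.7 and 20.3 TPM at 12 h, against 10.1, 8.99 and 3.66 TPM in the controls, and cd79a had 40.7, 29.8 and 32.2 TPM, against 36.3, 35.2 and 24.4 TPM. T and NK cell markers, 3 of 8 found, summed to 97.7, 33.9 and 65.0 TPM in the 12 h libraries, 119, 132 and 124 TPM in the 48 h libraries, and 34.9, 36.9 and 231 TPM in the controls. Neutrophil markers, 4 of 5 found, summed to 2257, 3026 and 2701 TPM in the 12 h libraries, 2126, 3274 and 2488 TPM in the 48 h libraries, and 3458, 3365 and 1542 TPM in the controls. Among the neutrophil markers, cxcr2 had 7.44, 4.6 and 5.66 TPM at 12 h, against 33.7, 31.4 and 22.25 TPM in the controls. The others overlapped, and the feature named mpo is described as eosinophil peroxidase-like. Monocyte and macrophage markers, 2 of 5 found, summed to 158 to 224 TPM at 12 h and 159 to 218 TPM at 48 h. Their control sums were 241 to 280 TPM. Of these 2, only mrc1 lay wholly below the controls at 12 h, and only mpeg1 at 48 h. Markers of exocrine pancreas, muscle and liver, 7 of 9 found, summed to 179 to 186 TPM at 12 h, 144 to 231 TPM at 48 h and 189 to 418 TPM in the controls. In control libraries 1, 2 and 3 the muscle marker ckm had 0.15, 0.24 and 23.1 TPM, and mylpf had 0.13, 0.35 and 27.8 TPM. At 12 h, ckm had 0.0, 2.65 and 2.44 TPM, and mylpf 0.22, 6.44 and 4.54 TPM. The liver marker apoa1 went the other way in the controls, with 241, 223 and 39.4 TPM. The part of these cells in the results was not tested.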

How the data were processed

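RNA of 9 whole kidney libraries was profiled by RNA-seq, 3 at each of 0, 12 and 48 h. The authors deposited 1 table of de novo assembled features, and each of its 9 value columns was assigned to a library by the column name. The values as deposited were treated as TPM: the header names no unit, the column sums are 993873 to 996068, and 92.5% to 96.0% of low values lie within 0.1 of a whole multiple of a step set by feature length. Depth was estimated from those steps, and the table itself holds no counts. The assembler's version, the aligner and the quantification tool are not given in the sources used here. Gene names, descriptions and KEGG terms are the table's own, with no genome positions, and 32 named members differ from another member only in letter case, so a name can stand for a paralogue.

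The 45473 features that reached 1 TPM in 3 or more libraries were put on the log2(TPM + 1) scale, where fold changes of low features are understated. All 9 libraries entered 1 limma model (limma 3.58.1, R 4.3.3) with a coefficient for each time and eBayes run with its trend and robust settings. Tests were two-sided, Benjamini-Hochberg adjusted over all features tested, and called at an adjusted p under 0.05. The plan's count-based tests were not used for want of counts. Members, roles and lists were chosen with earlier results of these data known, and roles were refined by hand from the members' names. The text names the called members, for each role the 2 most abundant and the 2 with the smallest F-test p, and a fixed set of chaperones and stress sensors, 50 in all; others are said to be named after their values were seen. Alternatives were a pseudocount of 0.1, quantile normalization, a filter of 5 TPM or none, eBayes without its trend, a block for the replicate number, fits of only the groups compared, features summed by name, control libraries 1 and 2 averaged, each library left out, and an adjusted p under 0.01. Chosen after seeing the data were keeping all 17 unnamed features, and counting overlap without control library 3 or with control libraries 1 and 2 averaged.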

Additional observations from a re-analysis of the deposited data

Results flagged for a closer look

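For 3 members the effect of 12 h and that of 48 h differed by a direct test, limma's comparison of 48 h against 12 h. The log2 difference was 1.53 for Nfe2l2, 0.945 for MARCH6 and -0.989 for UBE2D2. With features summed by name, 1 member was called higher in that comparison and 0 were called lower, the calls of MARCH6 and UBE2D2 being lost.

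Features with the same KEGG pathway whose best match lies outside fish were not among the members, and 4 of the 71 averaged at least 10 TPM. Counting each of the 4 at each treated time, in 6 cases all libraries of that time lay above all controls. Of the tested features at 10 TPM or more, 15.3% did so at 12 h and 20.6% at 48 h. Both times use the same 3 controls. The SEC61G feature, described only as an uncharacterized protein, averaged 310 TPM at 12 h and 313 TPM at 48 h, against 251 ± 2.98 TPM at 0 h (SD, n = 3). The SSR3 feature averaged 203 TPM at 12 h and 194 TPM at 48 h, against 169 ± 8.48 TPM at 0 h. The Stt3a feature averaged 68.6 TPM at 48 h, against 50.9 ± 4.89 TPM at 0 h, and its 12 h libraries, at a mean of 57.3 TPM, overlapped the controls. The TUSC3 feature averaged 29.4 TPM at 12 h, against 24.6 ± 2.64 TPM at 0 h, and its 48 h libraries, at a mean of 28.1 TPM, overlapped the controls. These means were not tested.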

How the results depend on the processing

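No result changed direction among called values, but few counts of calls kept their size, and the causes were not tested. For 12 h against 0 h the 3 calls became 0 with control libraries 1 and 2 averaged, 7 with a filter of 5 TPM, 1 without the trend, 1 with only the groups compared, and 0 at an adjusted p under 0.01. With the filter of 5 TPM, 318 of 17292 features were called higher and 447 lower. Leaving out 1 library gave 0 to 6 calls: omitting control library 1 or 2, or 12 h library 2 or 3, gave 0, omitting 48 h library 2 or 3 gave 1, and omitting 12 h library 1 gave 6. For 48 h against 0 h the count of 0 became 1 without control library 3, and was 0 under every other setting run. For 48 h against 12 h the 3 calls became 1 with features summed by name, 13 with a filter of 5 TPM, 1 without the trend, and 0 at an adjusted p under 0.01. That filter called 934 of 17292 features higher and 430 lower. Leaving out 1 library gave 0 to 19 calls there: omitting control library 3 gave 19, 12 h library 1 gave 10, 12 h library 3 gave 0, and control library 2, 12 h library 2 or any 48 h library gave 1. The F test's 2 calls became 1 with control libraries 1 and 2 averaged, 8 with a filter of 5 TPM, 0 without the trend, 1 with quantile normalization, and 0 at an adjusted p under 0.01, with 0 to 15 calls when 1 library was left out, 15 on omitting control library 3, 4 for 12 h library 1, 0 for 12 h library 2 or 3, and 1 for control library 2 or any 48 h library. Over all features, the F test called 858 of 17292 with the filter of 5 TPM. It called 2337 of 44854 without control library 3 and 379 of 45040 without 12 h library 1. The members' median log2 fold change at 48 h was 0.20 as reported and 0.11 with quantile normalization, with 0.16 to 0.24 when 1 library was left out. At 48 h against 12 h it was 0.05 and became -0.0305 with quantile normalization, which moved the median of all features to 0.04, against 0.21, and the split of all calls to 264 higher and 358 lower, against 485 and 278; the members' split became 1 higher and 2 lower, against 2 and 1. At 12 h against 0 h the median was 0.14 to 0.19 under every setting run.

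The labels do not say whether the replicate numbers pair the samples. Correlations of same-numbered libraries' deviations ran between -0.22 and 0.37, and those of different-numbered libraries between -0.34 and 0.30. With 3 libraries per time these values cannot settle the question. With the number as a replicate block, 1 member was called at 12 h against 0 h, 1 at 48 h against 12 h, 0 at 48 h against 0 h and 1 in the F test. Over all 45473 features, the block called 107 higher and 177 lower at 12 h against 0 h. It called 167 and 118 at 48 h against 12 h, 3 and 0 at 48 h against 0 h, and 105 in the F test. Of the alternatives for the named members in the 3 comparisons, 2699 kept direction and side of the threshold, 58 lost a call and 29 gained one. In another 64 the log2 fold change reversed its sign, with no call in either fit. With control libraries 1 and 2 averaged, 56 members lay wholly above and 14 below the controls at 12 h, against 10.2% and 17.5% of all features, and 55 above and 5 below at 48 h, against 14.8% and 6.38%. DESeq2 was not run, since the table holds no counts. Sampling depth limits the lowest members, such as those near 1 TPM.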

Other observations

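For the 71 features with the same KEGG pathway and no fish match, the 12 h libraries held 746, 707 and 734 TPM in sum, the 48 h libraries 777, 660 and 646 TPM, and the controls 690, 596 and 590 TPM. Of these, 67 averaged under 10 TPM each, and they summed to 178 TPM in control library 1 and to 42.4 TPM in 48 h library 3, with the other 7 libraries between 102 and 141 TPM. Over the whole table, the 524 features with a best match in Homo sapiens held 1303, 1318 and 1308 TPM in the 12 h libraries, 1080, 1070 and 627 TPM in the 48 h libraries, and 2509, 1372 and 1267 TPM in the controls.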
